A study of Mus musculus with 36 samples.

Results

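The genes described here are those of fatty acid uptake, lipolysis and beta-oxidation. They are 37 genes, chosen by symbol from the 46893 genes counted, and each symbol matched 1 gene. By role they comprised 10 genes of uptake and activation, 3 of lipolysis, 4 of the carnitine shuttle and its regulator malonyl-CoA, 11 of the beta-oxidation spiral, 3 auxiliary enzymes, 3 of electron transfer and 3 acyl-CoA thioesterases. All 37 passed the minimum mean count of 25 reads in every comparison.

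Muscle fibres take fatty acids from lipoproteins, which lipoprotein lipase hydrolyses at the capillary wall, and from their own lipid droplets, where triglyceride lipases act in turn. An acyl-CoA synthetase activates each fatty acid, the carnitine shuttle carries long chains into mitochondria, and the spiral shortens them to acetyl-CoA while electron-transferring flavoprotein passes electrons to the respiratory chain. Many of these genes are targets of the PPAR and ERR nuclear receptors, and slow, oxidative fibres are known to express them more than fast glycolytic fibres.

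RNA came from the gastrocnemius of 36 wild-type (WT) male C57BL/6 mice, 1 library per mouse and 6 mice per group, which were 3 to 4 weeks old at the start and were killed after 12 weeks. A sedentary group received AIN93G (NFD-C), and the other 5 groups received a high-fat diet richer in soybean oil. In the high-fat arm 1 group stayed sedentary (HFD-C), and 4 used in-cage wheels, with average distances of 2.1 (HFD-25%), 4.2 (HFD-50%), 6.3 (HFD-75%) or 8.3 km/day (HFD-U, unrestricted), a brake stopping the restricted runners at their daily distance. No other allele or agent is named. The study covers males alone, and a gastrocnemius sample mixes slow and fast fibres with vessels, blood and fat.

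Total counts on genes ranged from 13060090 to 27981702 per library. The skeletal muscle genes Ckm, Acta1, Myh4, Myh1 and Myh2 together made up 58815 to 117032 CPM (counts scaled to library size by the TMM method) per mouse. Libraries fell into sets by the share of counts on 5 rRNA-linked features. That share was 2.01% or more in the 6 NFD-C mice and in HFD-C replicates 1 to 4, and 1.02% or less in HFD-C replicates 5 and 6 and in all 24 runners. Each comparison of runners with HFD-C therefore crosses the sets, and values with a term for the set, or from the low-share libraries alone (which leave 2 HFD-C mice), are given for the counts and medians of each of these comparisons, and for single genes where the term ended a nominal call. HFD-C against NFD-C crosses the sets too, through HFD-C replicates 5 and 6. In bulk muscle, fewer cells of a type and less RNA per cell cannot be told apart, and the p-values measure the spread between these mice.

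Levels between genes were compared per length, as FPKM, the CPM divided by the gene length in kilobases (mean ± SD, n = 6). Fabp3, the cytosolic fatty acid-binding protein of heart and muscle, had the highest level in every group, with 536 ± 316 FPKM in NFD-C, 1260.0 ± 675 in HFD-C and 1516 ± 728 in HFD-50%. By the mean over all 6 groups, Etfb, a subunit of electron-transferring flavoprotein, and Lpl, the lipoprotein lipase, came next. In HFD-C they had 211 ± 66.7 and 159.7 ± 93.6 FPKM. These SDs are wide, and the ranks of Etfb, Lpl, Acadvl and Acadl lie within each other's spread. Of the spiral, Acadvl, the very-long-chain dehydrogenase, was above Lpl in that group on average and stood at 168 ± 56.7 FPKM and Acadm, that of medium chains, at 138 ± 50.2 in HFD-C. At the low end stood Acsl5, at 1.42 ± 0.312 FPKM, Acot1, at 1.16 ± 0.619, and Cpt1b, at 0.831 ± 0.555, all in HFD-C.

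**Figure D1:**
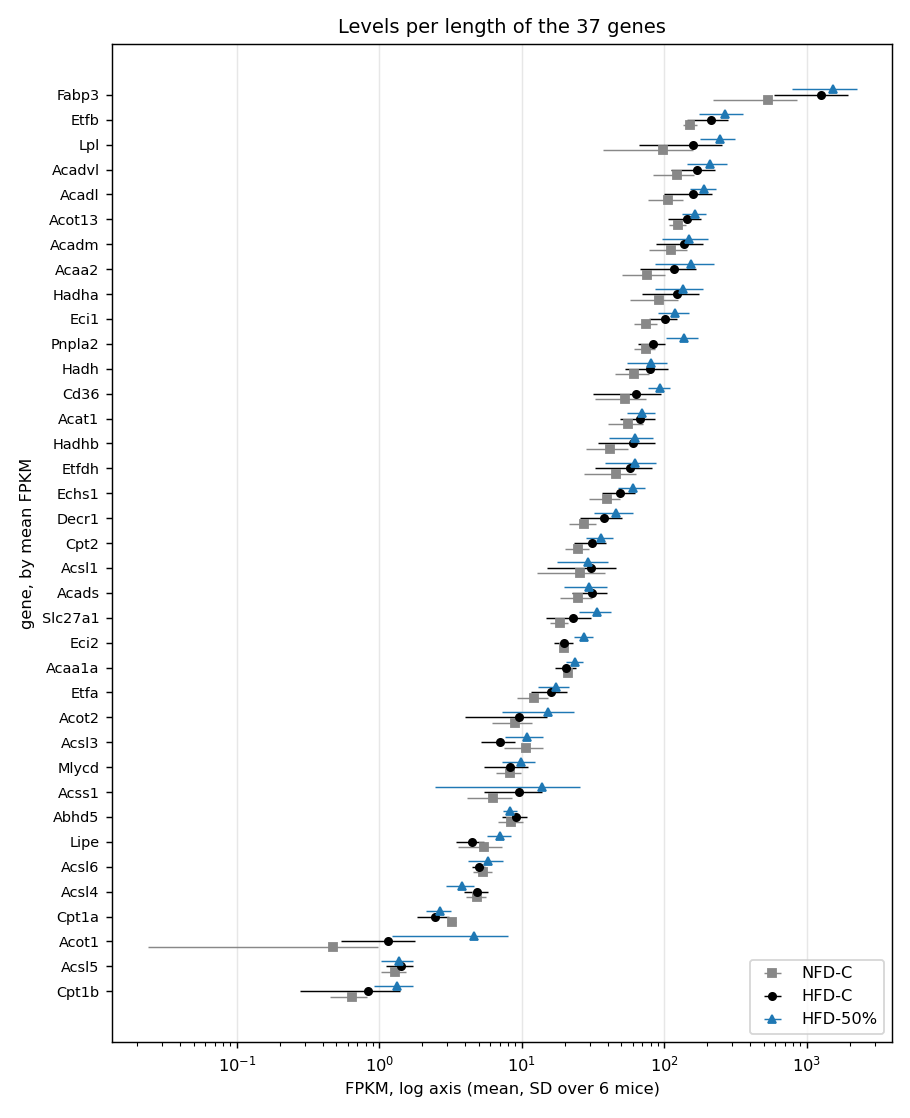
Mean FPKM (log axis) of the 37 genes in NFD-C, HFD-C and HFD-50%, with the SD over 6 mice as bars and genes ordered by the mean over all 6 groups. Levels span from Fabp3, at 1260.0 ± 675 FPKM in HFD-C, to Cpt1b, at 0.831 ± 0.555; the lower bar of Acot1 in NFD-C is truncated because its SD exceeds its mean.

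Some of these levels depend on how reads were assigned. Cpt1b encodes the muscle isoform of carnitine palmitoyltransferase 1, and its mean count over all libraries was 45.2 reads. Its whole span is covered on the same strand by the lncRNA Gm44502, which shares 91.1% of the 100-base windows of its transcript and which itself had a mean count of 0.111. Whether reads on more than 1 gene were assigned is not given in the sources used here, so the level of Cpt1b is uncertain. Windows were also shared between Etfb and Gm45233 (65.2%), Hadhb and Gm13910 (52.8%), Fabp3 and Fabp3-ps1 (21.7%), Acaa1a and Acaa1b (21.6%), and Acot1 and Acot2 (16.5% of the windows of Acot1). The counts of these genes may therefore be incomplete or mixed with those of their copies.

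Here a gene passed the nominal limit where its p before adjustment was 0.05 or less in edgeR's quasi-likelihood test, and an adjusted p is the Benjamini-Hochberg value over all genes of that fit. Most of the 37 genes were lowest in the normal-fat diet group and highest in runners. NFD-C had the lowest mean CPM for 28 of the 37, and HFD-C for 5. HFD-50% had the highest mean for 18, HFD-75% for 11, HFD-U for 4, HFD-25% for 3 and NFD-C for 1. These ranks carry no test and were not counted over all genes, and the groups overlapped for each of the 37 in every comparison of 2 groups. All NFD-C libraries are of the high-share set and those of all runners of the low-share set. In these ranks the library set therefore cannot be told apart from diet and running.

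**Figure D2:**
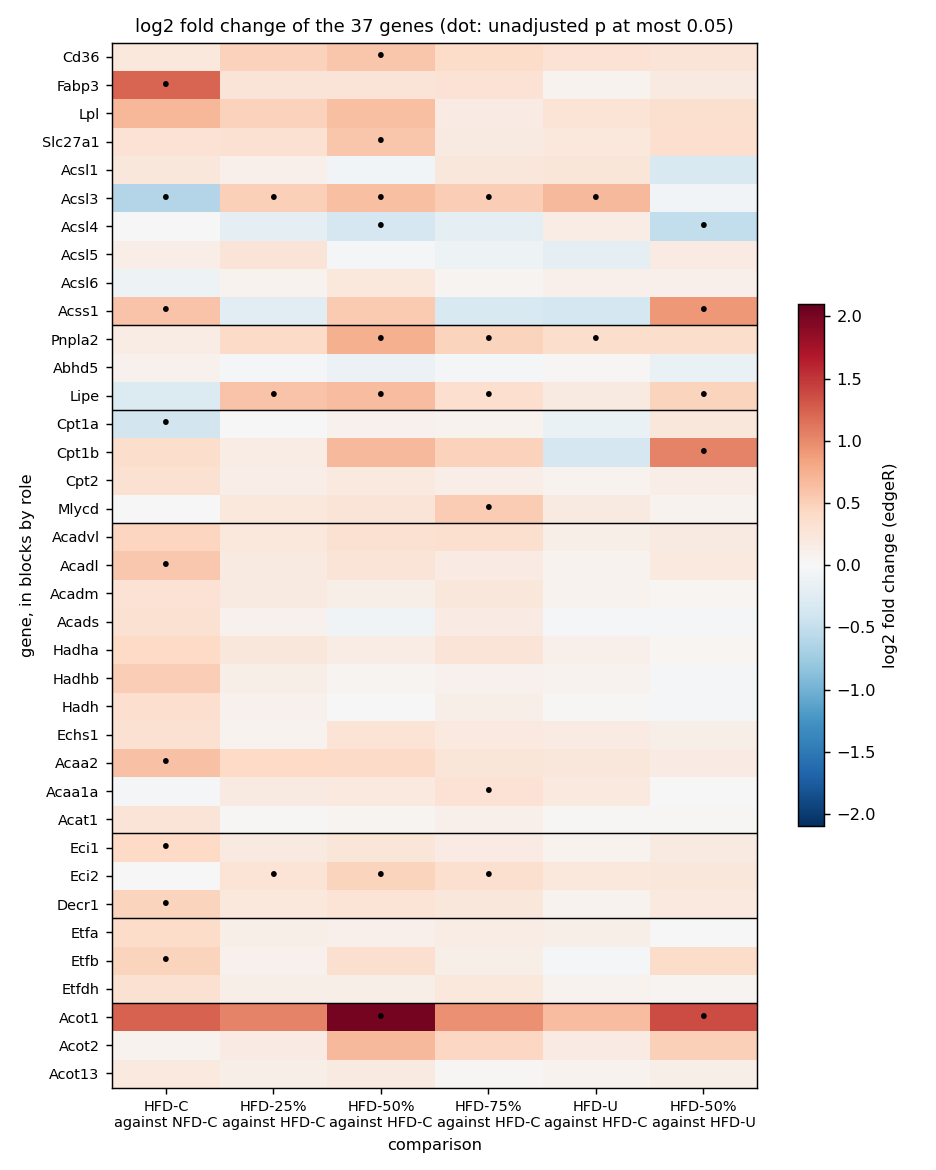
Log2 fold changes (colour) of the 37 genes, in blocks by role, in the 6 comparisons of 2 groups; a dot marks a p before adjustment of 0.05 or less in edgeR's quasi-likelihood test. Most cells are above 0, the strongest is Acot1 in HFD-50% against HFD-C at 2.0, and the comparisons with HFD-C share its 6 mice.

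In the middle-distance runners, HFD-50% against HFD-C, 7 of the 37 genes were higher and 1 was lower past the nominal limit. The higher genes were Acot1, Lipe, Pnpla2, Eci2, Acsl3, Slc27a1 and Cd36, and the lower gene was Acsl4. Of all 12116 genes tested, 5.8% were higher and 4.89% were lower at that limit. No gene of the 37 passed an adjusted p of 0.05 in edgeR (lowest adjusted p = 0.163, Benjamini-Hochberg), the share over all genes being 0.0%, whereas DESeq2 called 8 of the 37 nominally and 3 after adjustment, Acot1, Pnpla2 and Lipe. Over all 12116 genes DESeq2 gave 1406 nominal and 162 adjusted calls. The log2 fold change was positive for 32 of the 37, with a median of 0.27 against 0.01 over all genes. Without HFD-C replicate 3 the median was 0.18. The library-set term gave a median of 0.39 with 8 nominal calls, and the low-share libraries alone 0.40 with 9. Over all genes the nominal calls in these fits were 1352 of 12116 and 1122 of 11867. Without HFD-50% replicate 5 or without replicate 6, 5 genes passed the nominal limit in place of 8. Over all genes, 1082 and 1026 did, in place of 1296. All 8 slow-fibre genes of the marker list also had a positive log2 fold change, with a median of 1.0, and 1, Tpm3, passed the nominal limit.

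Set against HFD-C, the shortest-distance group HFD-25% had 3 of the 37 genes higher (Lipe, Acsl3 and Eci2) and 0 lower past the nominal limit, where 3.4% of all 12202 genes were higher and 3.58% lower. None of the 37 passed adjustment in edgeR (lowest adjusted p = 0.452), where 0.0082% of all genes did. DESeq2 gave 5 nominal and 0 adjusted calls among the 37, beside 923 and 44 over all genes. A positive change was seen in 33, with a median log2 fold change of 0.18 against -0.01 over all genes. That median was 0.07 without HFD-C replicate 3 (25 positive), 0.11 without HFD-C replicate 5, 0.10 without HFD-25% replicate 1 (26 positive), 0.10 without HFD-25% replicate 6 and 0.34 without HFD-C replicate 1. It was 0.32 with the library-set term and 0.33 in the low-share libraries alone, each with 2 of the 37 genes past the nominal limit. Over all genes, 1495 of 12202 and 1403 of 12051 passed it in these fits. Among the 37, leaving out HFD-C replicate 3 or HFD-25% replicate 4 gave a count of 1. Over all genes, 755 and 629 passed the limit in these fits, beside 852 in the main fit. Of the slow-fibre genes, 5 of 8 had a positive log2 fold change (median 0.14) and 0 passed the nominal limit.

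At the third distance, HFD-75% against HFD-C, 6 of the 37 were higher (Pnpla2, Eci2, Acaa1a, Acsl3, Lipe and Mlycd) and 0 were lower past the nominal limit. The shares over all 12113 genes were 2.31% higher and 3.16% lower, and 0.0% passed adjustment. The lowest adjusted p among the 37 was 0.656 in edgeR, and DESeq2 gave 7 nominal and 0 adjusted calls, beside 729 and 40 over all genes. Positive log2 fold changes numbered 33, and their median over the 37 was 0.20 against 0.00 over all genes. Single mice moved that median, to 0.06 without HFD-75% replicate 1 (24 positive), 0.11 without HFD-C replicate 3 and 0.12 without HFD-C replicate 5. With a term for the library set, 2 of the 37 passed the nominal limit, and 4 did in the low-share libraries alone, the median being 0.35 in both. Over all genes, 1088 of 12113 and 1069 of 11885 passed it in these fits. Of the slow-fibre genes, 1 of 8 was positive (median -0.13), with 0 past the nominal limit.

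Unrestricted running gave 2 of the 37 past the nominal limit in HFD-U against HFD-C, Acsl3 and Pnpla2, both higher. Of all 12023 genes, 2.15% were higher and 3.31% lower, and 0.0% passed adjustment. Adjusted p was at least 0.552 for the 37 in edgeR, and DESeq2 gave 2 nominal and 0 adjusted calls, beside 703 and 30 over all genes. The change was positive for 31, with a median of 0.11 against -0.01 over all genes. This shift rested on single mice, since without HFD-C replicate 3 the change was positive for 18 with a median of -0.0022, and without HFD-C replicate 5 for 20 with a median of 0.02. Leaving out HFD-U replicate 1, 4 or 6 gave medians of 0.05, 0.07 and 0.04, and leaving out HFD-U replicate 2 or 3 or HFD-C replicate 1 gave 0.20, 0.17 and 0.23. With the library-set term and in the low-share libraries alone it was 0.26. Deviations of same-numbered mice of these groups correlated at 0.125 to 0.510, but mice of different numbers were not correlated for reference. Whether the numbers pair mice is therefore not shown. With the replicate block 5 of the 37 passed the nominal limit in edgeR, namely Acsl3, Pnpla2, Acsl1, Eci2 and Acaa1a. Over all 12023 genes 1232 passed it with the block and 657 in the main fit. The count among the 37 was 1 with the library-set term, in the low-share libraries alone, and without any 1 of HFD-C replicates 2, 3 and 5 and HFD-U replicates 1, 3, 4, 5 and 6. Over all genes, 1426 of 12023 passed with the term and 1390 of 11776 in the low-share libraries alone. In the fits without 1 mouse just named, from 527 to 829 did, beside 657 in the main fit. Here 0 of the 8 slow-fibre genes had a positive log2 fold change (median -0.68), and 0 passed the limit.

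On the diet itself, HFD-C against NFD-C, 7 of the 37 were higher (Fabp3, Etfb, Eci1, Acadl, Decr1, Acaa2 and Acss1) and 2 were lower (Acsl3 and Cpt1a) past the nominal limit. Over all 12247 genes 2.14% were higher and 1.98% lower, and 0.0% passed adjustment. Every adjusted p of the 37 rounded to 1.0 in edgeR, and DESeq2 gave 12 nominal and 0 adjusted calls, beside 557 and 2 over all genes. A positive change was found for 29, with a median log2 fold change of 0.31 against 0.00 over all genes. Without HFD-C replicate 1 that median was 0.19, with 25 of 36 genes tested positive. This comparison also crosses the library sets. With the library-set term the median was 0.39, with 8 of the 37 past the nominal limit beside 542 of all 12247 genes. In the high-share libraries alone it was 0.39, with 11 of the 37 beside 612 of 12338. Single mice decided the count of nominal calls. It was 21 without NFD-C replicate 1, 19 without HFD-C replicate 3 and 17 without HFD-C replicate 5. It was 5 without NFD-C replicate 4, 5 or 6 or HFD-C replicate 4, and 4 without HFD-C replicate 1 or 6. Counts over all genes moved too, from 504 in the main fit to 784, 676 and 688 in the first 3 of these fits. In the others, in the order named, they were 448, 434, 377, 448, 564 and 419. Slow-fibre genes differed in the same direction, with 8 of 8 higher on average in HFD-C and a median log2 fold change of 1.35, though 0 of the 8 passed the nominal limit.

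HFD-50% was also set against HFD-U, since these runners share diet and library set. Higher in HFD-50% past the nominal limit were 4 of the 37 (Acot1, Cpt1b, Lipe and Acss1), and 1 was lower (Acsl4), against 7.08% and 5.34% of all 11851 genes. The adjusted p was 0.268 at the lowest among the 37 in edgeR, where 0.00844% of all genes passed adjustment. DESeq2 gave 4 nominal and 0 adjusted calls among the 37, beside 1623 and 103 over all genes. The median log2 fold change was 0.16, against 0.02 over all genes, and it was 0.06 without HFD-U replicate 2, 0.09 without HFD-U replicate 3, 0.08 and 0.08 without HFD-50% replicates 5 and 6, and 0.28 without HFD-U replicate 4. In this comparison 7 of the 8 slow-fibre genes were higher in HFD-50% past the nominal limit, with a median log2 fold change of 1.89, and their part in the result was not tested.

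Among the genes of uptake, Lpl and Cd36 were higher on average in every running group than in HFD-C. Lpl releases fatty acids from lipoproteins. Its lowest, median and highest values were 194, 291 and 859 CPM in NFD-C, 208, 667 and 1133 CPM in HFD-C and 718, 932 and 1367 CPM in HFD-50%. The groups overlapped, although all 6 HFD-50% mice were above the HFD-C median, and the log2 fold change of 0.63 ± 0.36 (SE), adjusted p = 0.554, in edgeR's quasi-likelihood test, did not pass the nominal limit. Cd36, a fatty acid translocase of the plasma membrane, ranged over 119.8, 225 and 454 CPM in HFD-C (lowest, median, highest) and 308, 368 and 485 CPM in HFD-50%. Again 6 of 6 HFD-50% mice exceeded the HFD-C median and 1 exceeded every HFD-C mouse. The edgeR log2 fold change was 0.57 ± 0.27 (SE), adjusted p = 0.463. It was lost in 8 of the 12 fits without 1 mouse (log2 fold change 0.46 without HFD-C replicate 3), and was 1.22 in the low-share libraries alone. Both genes are also expressed by adipocytes, and Cd36 by endothelium too. Summed markers of both cell types are given further on.

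Slc27a1, a fatty acid transport protein with acyl-CoA synthetase activity, was measured at 68.6, 115 and 169 CPM in HFD-C and at 102, 169 and 210.0 CPM in HFD-50%. In HFD-50%, 5 of 6 mice were above the HFD-C median and 3 above every HFD-C mouse. The edgeR log2 fold change was 0.58 ± 0.23 (SE), adjusted p = 0.396, and 4 of the 12 fits without 1 mouse lost it (log2 fold change 0.50 without HFD-50% replicate 5). In HFD-75% the values were 95.4, 109 and 212 CPM, the highest being that of replicate 1, which stood apart from the other 5 mice.

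Fabp3 passed the nominal limit between the diets and in no comparison of runners with HFD-C, a contrast that was itself not tested. It was 178, 275 and 694 CPM in NFD-C (lowest, median, highest) and 301, 955 and 1322 CPM in HFD-C. Each HFD-C mouse was above the NFD-C median, and 4 of the 6 were above every NFD-C mouse, while replicates 3 and 5 of HFD-C lay within the NFD-C range. The log2 fold change was 1.22 ± 0.41 (SE), adjusted p = 1.0 in edgeR, and all 12 fits without 1 mouse stayed past the nominal limit. In the runners the means were, for rising distance, 1029.7 ± 579, 1031 ± 495, 1045 ± 427 and 901 ± 538 CPM (SD, n = 6), each within the spread of HFD-C at 857 ± 459.

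**Figure D3:**
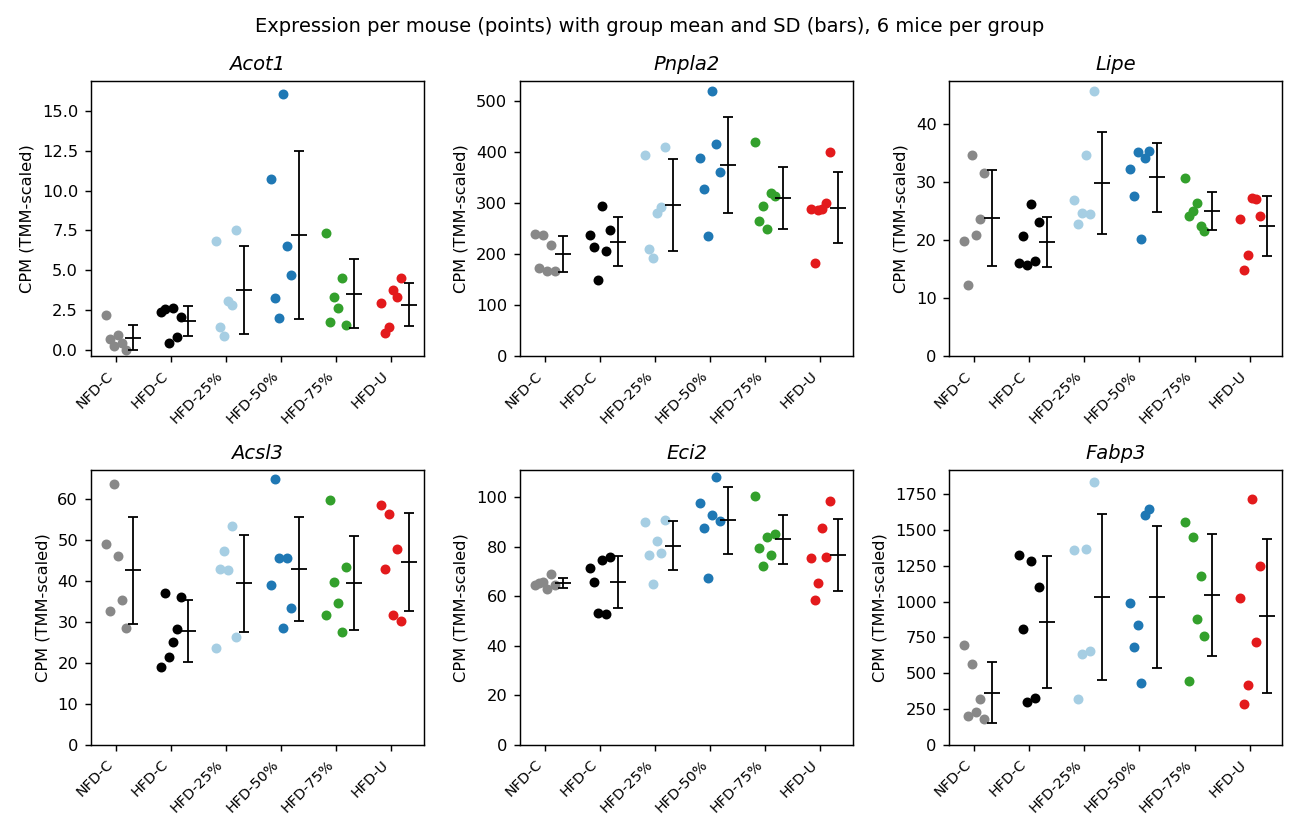
CPM of Acot1, Pnpla2, Lipe, Acsl3, Eci2 and Fabp3 in each mouse (points) with the group mean and SD (bars), 6 mice per group. Acot1 reached 16.1 CPM in 1 HFD-50% mouse against at most 2.63 in HFD-C, and 4 HFD-C mice had 808 to 1322 CPM of Fabp3 while the other 2 had 301 and 324.

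The long-chain acyl-CoA synthetases, which trap fatty acids as CoA esters, differed in direction. Acsl3, an enzyme of the endoplasmic reticulum and lipid droplets, was the one gene of the 37 that was higher than in HFD-C past the nominal limit in all 4 running groups. Its values were 19.0, 26.6 and 36.9 CPM in HFD-C, 23.5, 42.8 and 53.3 CPM in HFD-25% and 28.5, 42.2 and 64.7 CPM in HFD-50%. In HFD-75% and HFD-U they were 27.5, 37.1 and 59.6 CPM and 30.2, 45.2 and 58.4 CPM. Of HFD-25% 4 of 6 mice, and of each other running group all 6, exceeded the HFD-C median. The edgeR log2 fold changes were 0.51 ± 0.21, 0.63 ± 0.20, 0.51 ± 0.20 and 0.69 ± 0.20 (SE) for rising distance, with adjusted p from 0.281 to 0.8. The first lost its nominal call in 7 of 12 fits without 1 mouse (log2 fold change 0.40 without HFD-25% replicate 5) and the third in 1. The 4 comparisons share the HFD-C mice, in which Acsl3 was itself lower than in NFD-C, at 28.5, 40.7 and 63.6 CPM, by a log2 fold change of -0.62 ± 0.21 (SE), adjusted p = 1.0 (edgeR). With a term for the library set, the 4 log2 fold changes against HFD-C were 0.29, 0.41, 0.30 and 0.47, and 0 of the 4 stayed past the nominal limit.

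Acsl4, which prefers arachidonic acid, was lower in the middle-distance runners past the nominal limit. Its values were 22.1, 24.6 and 33.7 CPM in HFD-C, 17.95, 18.5 and 29.5 CPM in HFD-50% and 19.2, 30.95 and 37.1 CPM in HFD-U. In HFD-50%, 4 of 6 mice were below every HFD-U mouse and all 6 were below the HFD-U median. Against HFD-U the log2 fold change was -0.51 ± 0.16 (SE), adjusted p = 0.268, and against HFD-C it was -0.35 ± 0.16 (SE), adjusted p = 0.438, both in edgeR. The first stayed past the nominal limit in all 12 fits without 1 mouse, and the second lost it in 6 of 12 (log2 fold change -0.28 without HFD-C replicate 1) and with the library-set term (log2 fold change -0.16).

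For Acsl1, the member of the family with the highest FPKM, the means were 214 ± 109 CPM in HFD-C and 204 ± 80.5 in HFD-50%, with an edgeR log2 fold change of -0.06 ± 0.31 (SE), adjusted p = 0.964. Acsl5 and Acsl6 had log2 fold changes from -0.20 to 0.27 across the comparisons with HFD-C, with none past the nominal limit. Acsl6 has an antisense lncRNA, Gm12224, with a mean count of 437 beside 673 for Acsl6, and counting by strand is not given in the sources used here. Acss1, a mitochondrial acetyl-CoA synthetase, was 14.6, 21.5 and 37.2 CPM in NFD-C and 18.4, 34.3 and 56.8 CPM in HFD-C, the groups overlapping, with a log2 fold change of 0.60 ± 0.27 (SE), adjusted p = 1.0 in edgeR. That call was lost in 8 of 12 fits without 1 mouse. In HFD-50% Acss1 was 22.7, 36.9 and 134 CPM, where replicate 4 alone set the highest value. The log2 fold change against HFD-U of 0.91 ± 0.40 (SE, edgeR) lost its nominal call in 4 of 12 such fits, that without this mouse included (log2 fold change 0.32).

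In lipolysis, both lipase genes were higher than in HFD-C past the nominal limit in 3 running groups each. Pnpla2 encodes adipose triglyceride lipase, which takes the first fatty acid from stored triglyceride in muscle as well as in fat. The gene lies on chromosome 7 at 141035101 to 141040656 (plus strand, GRCm39, from the deposited file). Per group, its lowest, median and highest values were 167, 196 and 239 CPM in NFD-C, 149, 225 and 295 CPM in HFD-C and 193, 286 and 410.4 CPM in HFD-25%. The other runners gave 236, 374 and 521 CPM in HFD-50%, 249.8, 304 and 419.7 CPM in HFD-75% and 182, 288 and 401 CPM in HFD-U. All 6 mice of HFD-50% and of HFD-75% were above the HFD-C median, and 5 HFD-50% mice were above every HFD-C mouse. The edgeR log2 fold change against HFD-C was 0.75 ± 0.19 (SE), adjusted p = 0.169, in HFD-50%, and 0.47 ± 0.16 (SE), adjusted p = 0.656, in HFD-75%. In HFD-25% it was 0.40 ± 0.20 (SE), adjusted p = 0.732, and in HFD-U 0.38 ± 0.18 (SE), adjusted p = 0.912, the latter lost in 9 of 12 fits without 1 mouse (log2 fold change 0.26 without HFD-U replicate 6). With the library-set term, HFD-75% and HFD-U had 0.46 and 0.36 and were past the limit in neither. The HFD-50% difference passed an adjusted p of 0.05 in DESeq2 (0.0208) and in edgeR with 1 fit over all 6 groups (0.043).

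Lipe encodes hormone-sensitive lipase, which acts mainly on diglyceride. It was 15.7, 18.5 and 26.2 CPM in HFD-C, 22.9, 25.8 and 45.8 CPM in HFD-25% and 20.3, 33.2 and 35.4 CPM in HFD-50%. HFD-75% and HFD-U had 21.5, 24.6 and 30.8 CPM and 14.8, 23.9 and 27.3 CPM. All mice of the 3 restricted groups, and 4 of 6 of HFD-U, were above the HFD-C median, yet each group overlapped HFD-C. The edgeR log2 fold changes were 0.60 ± 0.19 (SE), adjusted p = 0.452, in HFD-25% and 0.65 ± 0.17 (SE), adjusted p = 0.166, in HFD-50%, and both stayed past the nominal limit in all 12 fits without 1 mouse. In HFD-75% it was 0.35 ± 0.15 (SE), adjusted p = 0.849 (lost in 5 of 12, log2 fold change 0.28 without HFD-75% replicate 1, and with the library-set term, log2 fold change 0.35), and in HFD-U 0.19 ± 0.17 (SE), adjusted p = 0.997. HFD-50% exceeded HFD-U by 0.46 ± 0.17 (SE), adjusted p = 0.313 (edgeR), with 5 of 6 HFD-50% mice above every HFD-U mouse. Lipe was not lowest in NFD-C, where it was 12.2, 22.2 and 34.7 CPM. Its span is covered on the opposite strand by the lncRNA 4732471J01Rik, which had a mean count of 22 beside 429.8 for Lipe.

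Abhd5, the coactivator of Pnpla2, showed none of this. Its mean was 34.0 ± 6.66 CPM in HFD-C and 31.2 ± 3.53 in HFD-50%, and its log2 fold changes against HFD-C ran from -0.12 to 0.02, none past the limit in edgeR. Since Pnpla2 and Lipe are also adipocyte genes, the adipocyte list (Adipoq, Plin1, Lep, Retn, Cfd, Adrb3 and Cidec) was summed per mouse. Its range was 2.74 to 90.7 CPM in HFD-C, 1.10 to 24.3 in HFD-25% mice, 3.07 to 39.3 in HFD-50%, 1.57 to 14.9 in HFD-U and 2.27 to 85.9 in HFD-75%. Of its genes tested in HFD-50% against HFD-C, 1 of 4 had a positive log2 fold change and 0 passed the nominal limit, while Lep was lower past it in HFD-25%, and Lep, Adipoq and Cidec were in HFD-U. Adipoq and Lep were at 0 counts in 2 libraries each, Cidec in 1, Retn in 6, Plin1 in 7 and Adrb3 in 24. Summed endothelial markers were 125 to 239 CPM in HFD-C, 128 to 453 in HFD-25% and 136 to 302 in HFD-50%. Against HFD-C all 6 had a positive log2 fold change in HFD-25%, where Cdh5 (0.69) and Tie1 (0.77) passed the nominal limit, and in HFD-50%, where Tie1 did. In HFD-75% 5 of 6 were positive and in HFD-U 2 of 6, with 0 past the limit in either. The part of endothelium in Cd36, and of adipocytes in Lpl and Cd36, was not tested.

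Promoters of Pnpla2 and its coactivator Abhd5 are shown to compare a gene past the nominal limit in 3 running groups with a partner past it in 0. Promoter sequence (250 bases before to 50 after the start, written along the gene) was taken from RefSeq on GRCm38.p6, a build that differs from that of the gene coordinates above, and 31 of the 37 genes matched, with 37 promoters. The letters searched on both strands were AGGTCANAGGTCA, the direct repeat bound by PPAR with RXR, and AAGGTCA, the extended site bound by ERR, which overlaps it in part. The direct repeat was found in 0 of the 37 promoters and in 0.0396% of all 32851. The extended site was in 3 of the 37 promoters (Abhd5, Acadm and Acsl6) and in 4.72% of all. Capitals mark the extended site, here as its reverse complement.
Pnpla2 (chr7:141454938-141455237, plus strand): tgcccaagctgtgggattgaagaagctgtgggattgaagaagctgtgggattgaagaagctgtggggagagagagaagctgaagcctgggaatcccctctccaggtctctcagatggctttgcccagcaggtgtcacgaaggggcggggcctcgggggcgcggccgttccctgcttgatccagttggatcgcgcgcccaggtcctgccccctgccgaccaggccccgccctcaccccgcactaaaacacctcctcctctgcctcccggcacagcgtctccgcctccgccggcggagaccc
Abhd5 (chr9:122351366-122351665, plus strand): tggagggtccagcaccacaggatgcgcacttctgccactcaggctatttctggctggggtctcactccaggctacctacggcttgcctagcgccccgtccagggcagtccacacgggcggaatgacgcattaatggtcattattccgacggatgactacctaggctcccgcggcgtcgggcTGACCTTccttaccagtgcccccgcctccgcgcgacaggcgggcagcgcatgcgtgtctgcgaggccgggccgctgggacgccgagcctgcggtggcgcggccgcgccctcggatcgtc
The Pnpla2 window holds neither motif, and the Abhd5 window holds 1 extended site, which describes only these letters in these windows.

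Of the carnitine shuttle, Cpt1a, Cpt1b and Mlycd each passed the nominal limit in 1 comparison of 2 groups, and Cpt2 in 0. Cpt1a, the liver isoform of the shuttle's first enzyme, was 14.7, 16.5 and 17.4 CPM in NFD-C and 7.48, 12.6 and 16.1 CPM in HFD-C, a log2 fold change of -0.39 ± 0.16 (SE), adjusted p = 1.0 (edgeR), lost in 3 of 12 fits without 1 mouse, with -0.35 without HFD-C replicate 1, and with the library-set term (-0.33). In HFD-C 4 of 6 mice were below every NFD-C mouse. No running group passed the limit against HFD-C. Cpt1b, whose counts are uncertain for the reason above, was 2.29, 3.85 and 5.75 CPM in HFD-50% and 0.4928, 2.04 and 3.13 CPM in HFD-U, giving a log2 fold change of 1.04 ± 0.37 (SE), adjusted p = 0.294 (edgeR). The groups overlapped, and all 12 fits without 1 mouse kept the nominal call. Cpt2, the enzyme of the inner membrane, had log2 fold changes from 0.08 to 0.32, with none past the limit. Mlycd, which degrades the Cpt1 inhibitor malonyl-CoA, was 15.7, 26.3 and 42.0 CPM in HFD-C and 27.9, 31.7 and 68.9 CPM in HFD-75%, where replicate 1 stood apart. The log2 fold change was 0.53 ± 0.24 (SE), adjusted p = 0.892 in edgeR, and it was lost in 7 of 12 fits without 1 mouse, with log2 fold change 0.27 without that replicate.

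In the beta-oxidation spiral, most enzymes were higher on average in runners than in HFD-C and in HFD-C than in NFD-C, but few differences passed the nominal limit. Against HFD-C the log2 fold change was positive for all 11 genes in HFD-25% and HFD-75% (medians 0.18 and 0.20) and for 10 in HFD-50% and HFD-U (medians 0.16 and 0.08), medians that were not recomputed without single mice. Acaa1a, in HFD-75%, was the only one of the 11 past the nominal limit in these 4 comparisons. Against NFD-C, 10 of 11 were higher in HFD-C, with a median of 0.36, and Acadl and Acaa2 passed the nominal limit.

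Acadl, the long-chain acyl-CoA dehydrogenase, was 142, 195 and 299 CPM in NFD-C and 166, 338 and 424 CPM in HFD-C, with a log2 fold change of 0.57 ± 0.24 (SE), adjusted p = 1.0. Acaa2, the mitochondrial thiolase that closes each turn, was 76.9, 98.8 and 176 CPM in NFD-C and 86.8, 199 and 243 CPM in HFD-C, with 0.62 ± 0.28 (SE), adjusted p = 1.0, both in edgeR. In both genes the highest HFD-C mice exceeded all of NFD-C and the lowest lay inside its range, and 7 of 12 fits without 1 mouse lost each call (log2 fold change 0.46 for Acadl without HFD-C replicate 1, and 0.50 for Acaa2 without HFD-C replicate 4). The dehydrogenases Acadvl, Acadm and Acads, the trifunctional protein genes Hadha and Hadhb, and Hadh, Echs1 and Acat1 ranged from 0.27 (Acat1) to 0.52 (Hadhb) in that comparison, none past the limit.

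Acaa1a, the peroxisomal thiolase, did not follow its mitochondrial counterpart between the diets, at 41.6 ± 2.63 CPM in NFD-C and 40.6 ± 6.67 in HFD-C (mean ± SD, n = 6). In HFD-75% it was 41.2, 51.6 and 54.1 CPM, against 35.9, 37.6 and 52.9 CPM in HFD-C, so that all 6 mice were above the HFD-C median and 2 above every HFD-C mouse. The log2 fold change was 0.30 ± 0.11 (SE), adjusted p = 0.782 (edgeR), and with the library-set term it was 0.05 and no longer past the limit. The Acadm promoter is shown because Acadm, the medium-chain dehydrogenase, is a textbook target of both receptors and its window holds the extended site, at its upstream end.
Acadm (chr3:153944594-153944893, minus strand): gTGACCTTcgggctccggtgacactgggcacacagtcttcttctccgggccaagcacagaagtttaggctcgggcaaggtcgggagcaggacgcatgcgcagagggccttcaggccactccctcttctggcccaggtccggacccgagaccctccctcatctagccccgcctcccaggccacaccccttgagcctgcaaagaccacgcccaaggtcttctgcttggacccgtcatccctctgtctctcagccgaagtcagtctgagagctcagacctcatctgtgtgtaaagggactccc
Its expression was 170.0, 298 and 452 CPM in HFD-C and 154, 307 and 423 CPM in HFD-50%, ranges that overlap almost wholly, with a log2 fold change of 0.12 ± 0.26 (SE), adjusted p = 0.908 (edgeR).

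The auxiliary enzymes remodel double bonds so that unsaturated fatty acids, the bulk of soybean oil, can enter the spiral. Eci2, an enoyl-CoA isomerase, was higher than in HFD-C past the nominal limit in the 3 restricted groups. It was 62.9, 64.8 and 69.0 CPM in NFD-C, 52.7, 68.7 and 75.9 CPM in HFD-C and 64.8, 80.0 and 90.8 CPM in HFD-25%. The longer distances gave 67.2, 91.4 and 108 CPM in HFD-50%, 72.0, 81.6 and 100.2 CPM in HFD-75% and 58.2, 75.5 and 98.5 CPM in HFD-U. In each restricted group 5 or 6 of 6 mice exceeded the HFD-C median, and NFD-C had the narrowest range of all groups. The edgeR log2 fold changes against HFD-C were 0.29 ± 0.13 (SE), adjusted p = 0.683, in HFD-25% and 0.47 ± 0.14 (SE), adjusted p = 0.23, in HFD-50%. For HFD-75% the value was 0.34 ± 0.12 (SE), adjusted p = 0.679, and for HFD-U it was 0.23 ± 0.14 (SE), adjusted p = 0.975. The first was lost with the library-set term (log2 fold change 0.32) and in 5 of 12 fits without 1 mouse (log2 fold change 0.24 without HFD-C replicate 3), and the second and the third were lost in 0 of 12, though the third, at 0.37, was no longer past the limit with the library-set term.

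Eci1 and Decr1 passed the nominal limit between the diets. Eci1, the isomerase of mitochondria, was 61.6, 80.4 and 98.2 CPM in NFD-C and 75.6, 114 and 134 CPM in HFD-C, with a log2 fold change of 0.41 ± 0.16 (SE), adjusted p = 1.0, and Decr1, the dienoyl-CoA reductase, was 57.9, 78.7 and 108 CPM and 72.2, 113 and 166 CPM, with 0.46 ± 0.20 (SE), adjusted p = 1.0 (edgeR). Ranges overlapped in each. Every fit without 1 mouse kept the call of Eci1, and 7 of 12 lost that of Decr1 (log2 fold change 0.32 without HFD-C replicate 1). Neither had a call past the nominal limit against HFD-C in any running group.

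The electron transfer genes were all higher in HFD-C than in NFD-C on average. Etfb was 115, 137 and 159.6 CPM in NFD-C and 145, 161 and 301 CPM in HFD-C, a log2 fold change of 0.46 ± 0.17 (SE), adjusted p = 1.0 (edgeR), and it kept the nominal call in all 12 fits without 1 mouse. In HFD-C 3 of 6 mice were above every NFD-C mouse. With the library-set term it was 0.31 and no longer past the limit. For Etfa, the other flavoprotein subunit, the log2 fold change was 0.39 ± 0.19 (SE), adjusted p = 1.0, and for Etfdh, the oxidoreductase that passes electrons to ubiquinone, 0.33 ± 0.27 (SE), adjusted p = 1.0. Across the 4 running groups against HFD-C the 3 genes lay between -0.04 and 0.33, with none past the nominal limit.

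Acyl-CoA thioesterases release free fatty acid and CoA, and Acot1, the cytosolic enzyme, is a classical PPAR target. Acot1 showed the largest fold change of the 37 genes in HFD-50% against HFD-C, from a low base. It lies on chromosome 12 at 84056276 to 84064444 (plus strand, GRCm39, from the deposited file). Its values were 0.0, 0.533 and 2.2 CPM in NFD-C, 0.413, 2.22 and 2.63 CPM in HFD-C and 0.875, 2.92 and 7.55 CPM in HFD-25% (lowest, median, highest). In the longer distances they were 2.0, 5.62 and 16.1 CPM, 1.57, 2.96 and 7.37 CPM and 1.05, 3.14 and 4.49 CPM in order of distance. In HFD-50%, 5 of 6 mice were above every HFD-C mouse and replicate 3 lay inside the HFD-C range, and the group means were lower in HFD-75% and HFD-U than in HFD-50%. The edgeR log2 fold change against HFD-C was 2.0 ± 0.51 (SE), adjusted p = 0.163, in HFD-50%, where all 12 fits without 1 mouse kept the call. DESeq2 gave an adjusted p of 0.00743. At the other distances it was 1.05 ± 0.53 (SE), adjusted p = 0.732 in HFD-25%, 0.97 ± 0.46 (SE), adjusted p = 0.916 in HFD-75% and 0.64 ± 0.44 (SE), adjusted p = 0.987 in HFD-U. HFD-50% exceeded HFD-U by 1.36 ± 0.47 (SE), adjusted p = 0.29 (edgeR), and between the diets the change was 1.23 ± 0.65 (SE), adjusted p = 1.0. In the low-share libraries alone the HFD-50% change was 2.37 on the log2 scale.

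The mitochondrial Acot2 lies on the same chromosome at 84034635 to 84040651 (GRCm39), and both promoters are shown because the genes share transcript sequence and are both highest on average in HFD-50%.
Acot1 (chr12:84009252-84009551, plus strand): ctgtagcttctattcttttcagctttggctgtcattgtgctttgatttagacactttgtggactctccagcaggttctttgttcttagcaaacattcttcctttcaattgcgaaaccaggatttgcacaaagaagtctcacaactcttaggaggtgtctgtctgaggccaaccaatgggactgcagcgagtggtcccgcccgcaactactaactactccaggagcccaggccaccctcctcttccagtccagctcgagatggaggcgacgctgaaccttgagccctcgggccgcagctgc
Acot2 (chr12:83987611-83987910, plus strand): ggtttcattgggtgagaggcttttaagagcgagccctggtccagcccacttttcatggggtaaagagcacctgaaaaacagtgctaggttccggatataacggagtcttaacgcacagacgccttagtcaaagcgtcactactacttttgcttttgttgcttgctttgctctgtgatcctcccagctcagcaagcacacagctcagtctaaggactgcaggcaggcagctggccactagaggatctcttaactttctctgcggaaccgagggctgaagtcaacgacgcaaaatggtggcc
Neither window holds either motif. Acot2 was 7.33, 21.7 and 39.1 CPM in HFD-C and 14.3, 30.1 and 62.6 CPM in HFD-50%, overlapping widely, with a log2 fold change of 0.68 ± 0.40 (SE), adjusted p = 0.564 (edgeR). Acot13, a thioesterase associated with mitochondria, had log2 fold changes from 0.03 to 0.19 against HFD-C, with none past the nominal limit.

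The distance itself was tested with a linear and a quadratic term in all 30 HFD mice. Of the 37 genes, 8 passed the nominal limit, where 12.2% of all 12006 genes did, and 0 passed adjustment in edgeR, where 0.683% of all genes did. They were Lipe (0.108), Eci2 (0.135), Acsl4 (0.15), Acot1 (0.158), Pnpla2 (0.17), Acsl3 (0.279), Cpt1b (0.332) and Acaa1a (0.356), each value being the adjusted p in edgeR. DESeq2 gave 8 nominal calls and 3 adjusted ones (Acot1, Lipe and Eci2), and without HFD-U replicate 4 edgeR called Acsl4 (adjusted p = 0.0454). Over all 12006 genes DESeq2 gave 1585 nominal and 247 adjusted calls. With the library-set term, 5 of the 8 remained (Acot1, Acsl4, Cpt1b, Eci2 and Lipe), where 1384 of all 12006 genes passed the nominal limit.

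Among the 24 runners alone, which share a library set, 3 of the 37 (8.11%) differed between distances past the nominal limit in edgeR. This was near the share over all 11935 genes, 7.27%. These were Acsl4, Cpt1b and Lipe. Adjusted p was 0.56 or more, and 0.0251% of all genes passed, while DESeq2 gave 4 nominal and 0 adjusted calls. The count was 1 without HFD-U replicate 2 or 3, and 5 without HFD-75% replicate 1. Counts over all genes for the DESeq2 fit and for these fits without 1 mouse are not given here, so these counts cannot be set against them.

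Other genes of fatty acid metabolism were read from a list of 54 symbols, of which 51 or 52 were tested per comparison (Acaa1b and Eci3 were below the minimum count in all). Past the nominal limit against HFD-C, 10 were higher and 1 lower for HFD-50%. HFD-25% gave 4 higher and 1 lower, HFD-75% gave 5 and 1, and HFD-U gave 1 and 0. Between the diets it was 3 higher and 1 lower in HFD-C, and in HFD-50% against HFD-U 6 higher and 1 lower. In either direction and in the same order, these were 11 of 52, 5 of 51, 6 of 51, 1 of 51, 4 of 51 and 7 of 52 tested. Over all genes the shares were 10.7%, 6.98%, 5.47%, 5.46%, 4.12% and 12.4%. Angptl4, the secreted inhibitor of lipoprotein lipase, had values of 2.95, 5.24 and 13.5 CPM in HFD-C, 11.9, 22.8 and 46.5 CPM in HFD-50% and 4.27, 5.24 and 6.08 CPM in HFD-U. Every HFD-50% mouse was above every HFD-U mouse, and the log2 fold change of 2.22 ± 0.28 (SE) passed adjustment in edgeR (adjusted p = 0.0106), as did its dose response (adjusted p = 0.00334). Plin4, a lipid droplet coat protein, was 380.3, 506 and 576 CPM in HFD-C and 721, 798 and 1238 CPM in HFD-50%, again without overlap, and its dose response passed adjustment (adjusted p = 0.00118, edgeR), with a log2 fold change of 0.84 ± 0.17 (SE), adjusted p = 0.111, for HFD-50%.

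Partners of the lipases and of Lpl also had positive log2 fold changes in HFD-50%. Values are for that group, but these genes passed the nominal limit in other comparisons with HFD-C as well. Counting all comparisons with HFD-C, that with NFD-C included, Plin3 and Ucp3 passed it in 4 and Plin4 and Ppargc1b in 3. Angptl4, Gpihbp1, G0s2 and Pdk4 passed it in 2. Plin3, another droplet coat, had an edgeR log2 fold change against HFD-C of 0.79 ± 0.21 (SE), adjusted p = 0.169, G0s2, the inhibitor of Pnpla2, of 0.86 ± 0.40 (SE), adjusted p = 0.458, and Gpihbp1, the capillary anchor of Lpl, of 0.70 ± 0.26 (SE), adjusted p = 0.365. Pdk4, which shuts glucose carbon out of the mitochondrion, and Ucp3, a mitochondrial carrier of muscle, had 0.86 ± 0.35 (SE), adjusted p = 0.392 and 0.66 ± 0.20 (SE), adjusted p = 0.253. Both were also higher past the nominal limit in HFD-75%, with a median log2 fold change of 0.73 beside 0.76 in HFD-50%. In HFD-U neither was (median 0.07). The coactivator gene Ppargc1b had a log2 fold change of -1.27 ± 0.42 (SE), adjusted p = 0.282, in HFD-50%. It was lower past the nominal limit in HFD-25% and HFD-75% too.

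Some mice were high or low in their group both for the 37 genes and for slow-fibre genes, and others were not. The summed CPM of the 37 was 3214 to 6531 in NFD-C, 3215 to 8493 in HFD-C and 5443 to 9369 in HFD-50%. In HFD-C, replicates 1, 4 and 6 had the highest sums, 8493, 7539 and 6811 CPM, and also the highest sums of the 8 slow-fibre genes, 1986, 1946 and 2647 CPM, where replicates 3 and 5 had 3215 and 3455 beside 152 and 397. In NFD-C, replicate 1 was highest in both, with 6531 and 2136 CPM, and it had the highest value of its group for 27 of the 37 genes. NFD-C replicate 3, next in the sum of the 37 at 4890.1 CPM, had a slow-fibre sum of 136. HFD-50% replicate 1 had 8157 CPM for the 37 beside 648, the lowest slow-fibre sum of its group. HFD-75% replicate 1 had the highest value of its group for 30 of the 37 and the highest sum, 10892 CPM, beside a slow-fibre sum of 1036, below the 1857 and 2281 of replicates 3 and 5. Its summed fast 2B genes (Myh4, Actn3, Pvalb and Mylk2) were the lowest of its group, at 42052 CPM against 66937 to 90588. HFD-50% replicate 1 had 58311 CPM for that list, within 48916 to 80923 in its group. Myh1 and Myh2 are in neither the slow-fibre nor the fast 2B list, and are not given by mouse. In the comparison of diets, slow-fibre sums of 1946 CPM or more were found in 3 HFD-C mice and 1 NFD-C mouse, and the part of fibre type in the differences was not tested.

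**Figure D4:**
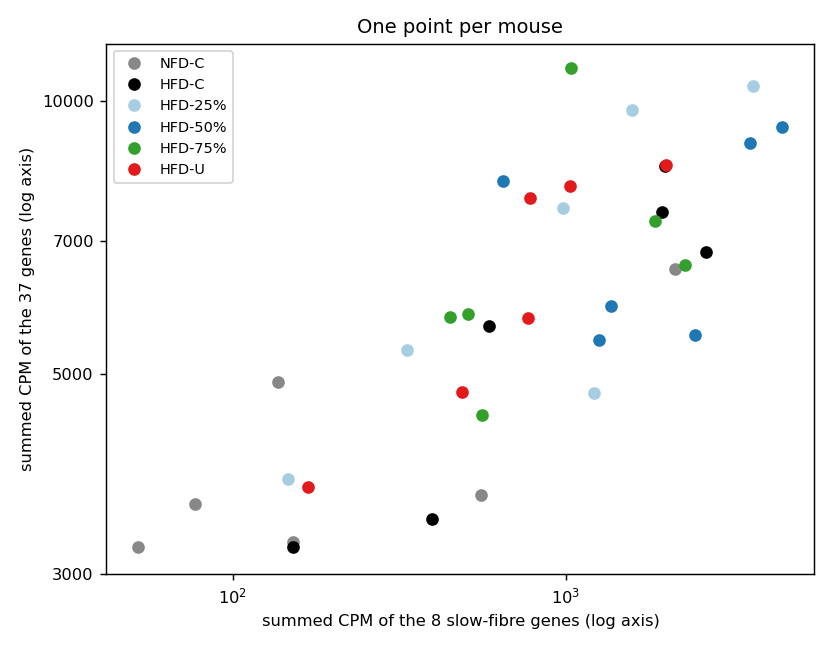
Summed CPM of the 37 genes against summed CPM of 8 slow-fibre genes (both log axes), 1 point per mouse, coloured by group. HFD-C replicates 3 and 5 are the lowest of their group on both axes, HFD-50% replicate 1 is lowest of its group on the slow-fibre axis alone, and the 6 HFD-50% mice all lie at 648 CPM or more on the slow-fibre axis while 5 of the 6 NFD-C mice lie at 556 or less.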

How the data were processed

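Gastrocnemius poly(A) RNA from 36 mice was sequenced as paired-end reads. Per the labels and the submitters' processing notes, the authors aligned reads to mm10 with HISAT2 2.0.5 and counted genes with featureCounts 1.5.0-p3, and StringTie 1.3.3b, DESeq2 1.20.0 and edgeR 3.22.5 are also named. The deposited values used here are raw counts per gene for each mouse. The gene coordinates in the deposited table are those of GRCm39, which differs from the build named, and the setting for strand or for reads on several genes is not given in the sources used here. Of the 46893 genes listed, 562 had no gene name and held 0.262% of counts. They were treated as the named genes were, in library sizes and in tests.

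Counts were tested in R 4.3.3 with edgeR 4.0.16 (TMM, quasi-likelihood F-test, two-sided, groups compared alone, minimum mean count 25, Benjamini-Hochberg over all genes of the fit). The limits were an unadjusted and an adjusted p of 0.05, the first following the study. FPKM was computed as TMM-scaled CPM per kilobase of the listed gene length. Alternatives were DESeq2 1.42.0, no minimum count, RLE size factors, a replicate block, 1 fit over all 6 groups, each mouse left out, and a term for the library set, which was defined by a limit of 1.5% of counts on AY036118, LOC118568312, mt-Rnr1, mt-Rnr2 and Lars2. Fits in the low-share or high-share libraries alone were added after seeing the data. The test was tested on simulated counts.

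Totals of 13060090 to 27981702 counts per mouse limit low genes such as Cpt1b and Acot1. Groups came from the treatment labels, and replicate numbers from the titles. Deviations of same-numbered mice correlated positively in HFD-U and HFD-C (6 pair correlations, 0.125 to 0.510), which is a check on the data and not a stated pairing. The other comparisons did not have all 6 pairs above 0.1. Mice of different numbers were not correlated, so these values have no reference. Named genes were up to 8 members with the smallest p among those at the unadjusted limit in each comparison, the 3 with the highest FPKM, and listed pathway genes at that limit in at least 2 comparisons with HFD-C or past adjustment in any; any other gene was chosen with its values in view. The members and the lists of pathway and marker genes were chosen with earlier results of these data known.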

Additional observations from a re-analysis of the deposited data

Results flagged for a closer look

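In 120 sets of 6 mice (20 genes in 6 groups), 3 had a highest mouse whose gap to the next, divided by the range of the group, exceeded Dixon's critical value at the 95% level; chance alone gives about 1 such set in 20. Slc27a1 in HFD-75% had a ratio of 0.689, with 212 CPM in replicate 1 against 95.4 to 132 CPM in the other 5 mice. Mlycd in HFD-75% had a ratio of 0.794, with 68.9 CPM in the same mouse against 27.9 to 36.4 CPM. Acss1 in HFD-50% had a ratio of 0.836, with 134 CPM in replicate 4 against 22.7 to 40.9 CPM.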

How the results depend on the processing

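Counts of genes past the nominal limit moved by more than 1.5 times as follows. HFD-25% against HFD-C (3) gave 5 in DESeq2, 5 with no minimum count and 6 with the replicate block. HFD-75% against HFD-C (6) gave 2 with the library-set term. HFD-U against HFD-C (2) gave 5 with the replicate block and 1 each with 1 fit over all 6 groups, the library-set term and the low-share libraries alone. HFD-50% against HFD-U (5) gave 8 with the replicate block, the dose response (8) gave 5 with the library-set term, and the 4 exercise groups (3) gave 5 with no minimum count. Counts over all genes moved in some of these fits. The replicate block gave 1010 in HFD-25% (main fit 852) and 1232 in HFD-U (657), each against HFD-C. It gave 2124 in HFD-50% against HFD-U (1472). The library-set term gave 1088 in HFD-75% (663) and 1426 in HFD-U (657), each against HFD-C, and 1384 in the dose response (1468). Adjusted calls (0) became 3 in DESeq2, 1 with no minimum count, 1 with the replicate block and 2 with 1 fit over all 6 groups for HFD-50% against HFD-C, and 3 in DESeq2 and 4 with the replicate block for the dose response. Over all genes, adjusted calls in those fits were 162, 53, 50 and 154 for HFD-50% against HFD-C. For the dose response they were 247 in DESeq2 and 256 with the replicate block. The causes were not tested.

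Without 1 mouse, the counts ranged from 1 to 4 in HFD-25%, 5 to 10 in HFD-50%, 4 to 7 in HFD-75% and 1 to 3 in HFD-U against HFD-C, 4 to 21 in HFD-C against NFD-C, 4 to 7 in HFD-50% against HFD-U, 6 to 9 in the dose response and 1 to 5 among the exercise groups; adjusted calls were 0 to 0, except 0 to 1 in the dose response. No direction reversed among the genes with an unadjusted call. Without 1 mouse, 594 calls of single genes were kept and 114 lost; kept were 43 of 44 in DESeq2, 42 of 44 with the replicate block and 20 of 36 with the library-set term, which leaves 2 HFD-C mice in the set of the runners. RLE size factors and no minimum count kept all 44. Mouse numbers are not said to pair mice, and the replicate block beyond HFD-U against HFD-C is given here only. The depth limits low genes such as Cpt1b (mean count 45.2) and Acot1, whose lowest count was 0.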
